A study of Homo sapiens with 4 samples.

Results

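The transcriptomes of SK-MEL-28 and A375, both established human cutaneous melanoma cell lines, were compared in the libraries of cells treated with siNC, the control siRNA. The genes described are those with at least 1 FPKM (a level scaled to gene length and sequencing depth) in either siNC library, which were 13875 of the 18175 genes listed. The study has 4 libraries of oligo(dT)-enriched RNA, 1 each of A375 treated with siNC, A375 treated with siLINC01291, SK-MEL-28 treated with siNC and SK-MEL-28 treated with siLINC01291. siLINC01291 is named for the long non-coding RNA LINC01291. The treatment text that all samples share also names EL, without saying what it is or which libraries received it. Each group is 1 library, and neither clone nor passage of either line is given, so a difference between the siNC libraries is reported as a size with its counting error and has no replicate check.

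Every expression level below is in FPKM and is given first for the siNC and then for the siLINC01291 library of each line. A fold is the difference between the siNC libraries, from counts scaled by TMM (edgeR's scaling between libraries) with 2 as the prior count, and is stated as higher or lower in SK-MEL-28. An interval in log2 units is a 95% exact binomial interval of that ratio and covers counting error only, since the reads carry no molecular identifiers. The same ratio between the siLINC01291 libraries is set beside it. An adjusted p comes from edgeR's quasi-likelihood test of line over the 4 libraries with a term for siRNA, which has 1 residual degree of freedom and takes the differently treated libraries of a line as its only replication. The labels do not say whether the differently treated cells of a line were grown independently. Such a p measures only the spread between these 4 libraries. With 1 library of each line and siRNA, that spread includes any response to siLINC01291 that differs between the lines. It cannot be told apart from variation between cultures.

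Total counts ran from 29351240 to 31815336 per library. LINC01291 itself, the gene that the siRNA is named for, was at 6.39 and 2.28 FPKM in A375 and at 8.11 and 3.70 FPKM in SK-MEL-28, lower in the siLINC01291 library of each line. Most markers of other skin and blood cells were below 1 FPKM in both siNC libraries or matched no row. Of 8 fibroblast markers 1 was expressed (LUM, the matrix proteoglycan lumican, 3.25 and 3.74 FPKM in A375 and 7.84 and 8.07 FPKM in SK-MEL-28). Of 8 keratinocyte markers 3 were expressed, KRT10, DSC3 and KRT14. The keratin KRT10 was at 27.1 and 27.7 FPKM in A375 and 18 and 19.9 FPKM in SK-MEL-28, and the keratin KRT14 at 6.16 and 7.32 FPKM in A375 and 0.0451 and 0.0151 FPKM in SK-MEL-28. Of 8 endothelial and 8 leukocyte markers 1 each was expressed (TIE1 at 2.01 FPKM and LYZ at 1.57 FPKM in A375 siNC, both lower in SK-MEL-28). The part of these markers in the results was not tested.

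Melanocytes make melanin in melanosomes, organelles whose structural proteins, enzymes and transporters are encoded by genes under the transcription factor MITF, which acts downstream of SOX10 and PAX3. Melanoma cells are known to occupy states that run from a differentiated, pigmented, MITF-high state through a neural crest-like state marked by the nerve growth factor receptor NGFR to a dedifferentiated state with little MITF and much of the receptor tyrosine kinase AXL. Both A375 and SK-MEL-28 are known to carry an activating mutation of the kinase gene BRAF.

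The markers set the lines apart. MITF was at 5.68 and 5.48 FPKM in A375 and 60.6 and 75.8 FPKM in SK-MEL-28. Between the siNC libraries MITF was 12.1-fold higher in SK-MEL-28 (log2 ratio 3.60, interval 3.52 to 3.69, edgeR adjusted p = 1.74e-06). PMEL, which forms the fibrils on which melanin is deposited, was at 1.64 and 2.13 FPKM in A375 and 804 and 1043 FPKM in SK-MEL-28. That made PMEL 553-fold higher (log2 ratio 9.11, interval 8.92 to 9.34, edgeR adjusted p = 3.52e-07). AXL was at 125 and 119 FPKM in A375 and 0.667 and 0.516 FPKM in SK-MEL-28. It was thus 162-fold lower (log2 ratio -7.34, interval -7.66 to -7.09). For these 3 genes the libraries of the lines did not overlap. MITF and PMEL were high in both SK-MEL-28 libraries and AXL in both A375 libraries. How many of all genes split this way was not counted. Of 5141 genes past 2-fold between the siNC libraries, 84.6% were past 2-fold the same way between the siLINC01291 libraries. These were 4349 of all 13875 genes, a count of agreement past 2-fold and not of such splits. A split of this kind, here and below, is thus not read as a particular trait of the genes named. A375 held MITF above 5 FPKM in both libraries, so the gene was expressed in both lines. In bulk RNA, fewer cells that express a gene and less of its RNA per cell cannot be told apart.

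Of the 13875 genes 10559 had at least 1 FPKM in both siNC libraries, 2084 in A375 alone and 1232 in SK-MEL-28 alone. Between the siNC libraries 2596 genes (18.7%) were 2-fold or more higher in SK-MEL-28, 2545 (18.3%) 2-fold or more lower and 8734 (62.9%) neither. The 2-fold counts of each list below are read against these shares. The differences were often large: 638 genes stood 8-fold or more above their A375 level and 830 that far below it. The edgeR test over the 4 libraries passed 4877 genes as higher (36.1%) and 4895 as lower (36.3%) of 13501 tested at an adjusted p under 0.05, so a pass in that test is common in this comparison and a list is read against these shares. Because a gene had only to reach 1 FPKM in either line, genes high in just 1 line are in the set by construction. The edgeR test took genes with at least 1 FPKM in at least 2 of 4 libraries. Genes such as AXL and IRF4 thus entered that test through the 1 line where they were high. Their adjusted p is no separate support for the difference and is not printed. At the threshold itself GATA6 was the last gene inside (0.612 FPKM in A375 and 1.00006 FPKM in SK-MEL-28) and CERS1 the first outside (0.994 and 0.999553 FPKM).

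**Figure D1:**
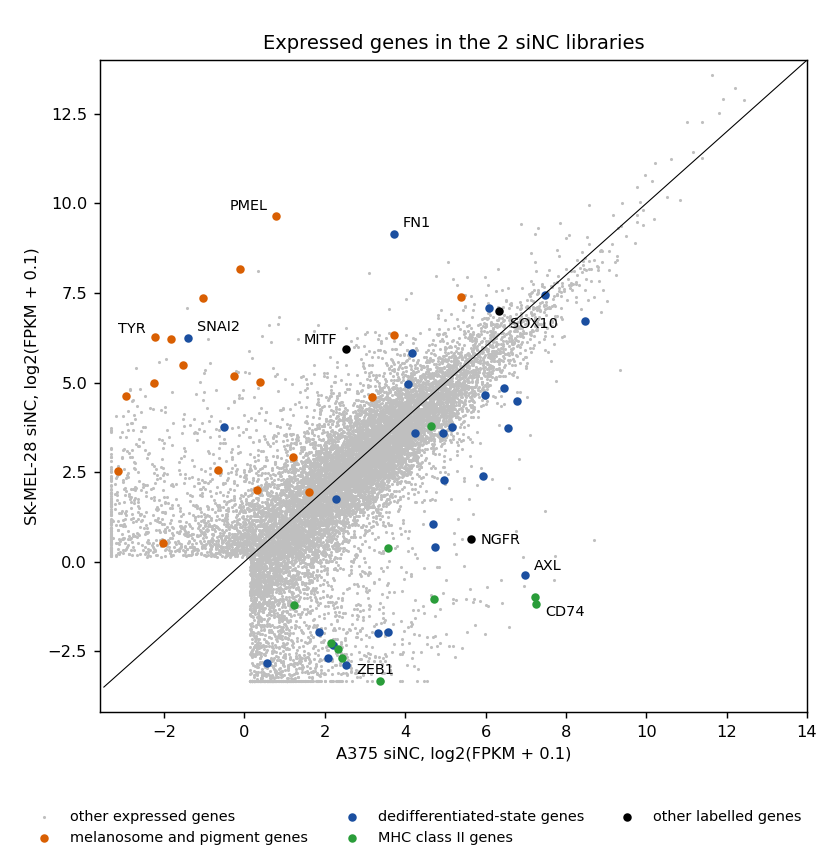
Level of each expressed gene in the A375 siNC library (x axis) and the SK-MEL-28 siNC library (y axis), both as log2(FPKM + 0.1), with 1 point per gene and the line of equal level. Pigment genes such as PMEL and TYR lie above the line, MHC class II genes such as CD74 and most dedifferentiated-state genes such as AXL and ZEB1 below it, and SNAI2 and FN1 are dedifferentiated-state genes above it.

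The 15 genes with the highest ratios among those with at least 10 FPKM in the higher line were led by pigment cell genes. They were TRPM1, ARMCX2, TYR, PRDM7, PMEL, CELF2, BIRC7, TRIM63, LINC01531, DCT, SCIN, IRF4, SLC45A2, MLANA and SLC7A8, with log2 ratios of 8.43 to 9.45 in the siNC pair and 8.38 to 9.83 in the siLINC01291 pair. PRDM7, a PR-domain zinc finger gene, was at 0.0378 and 0.0879 FPKM in A375 and 28.2 and 37.9 FPKM in SK-MEL-28. SCIN, which encodes an actin-severing protein, was at 0.0639 and 0.0701 FPKM in A375 and 28.3 and 28.3 FPKM in SK-MEL-28, and SLC7A8, an amino acid transporter gene, was at 0.156 and 0.157 FPKM in A375 and 50.8 and 50.9 FPKM in SK-MEL-28. CELF2, an RNA-binding protein gene, was at 0.0176 and 0.0228 FPKM in A375 and 11.1 and 8.48 FPKM in SK-MEL-28. In A375 siNC none of the 15 but PMEL reached 1 FPKM. ARMCX2 had 1 count in A375 siNC (log2 ratio 9.37, interval 8.55 to 16.34), and the ubiquitin ligase gene TRIM63 (8.92, 8.16 to 11.99) and LINC01531 (8.87, 8.11 to 11.94) had 3 each, so counting error leaves the size of those differences wide.

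The 15 lowest ratios, -8.69 to -8.01, belonged to FERMT1, ESM1, MEOX2, CD74, ANPEP, HAPLN1, SERPINB7, AMIGO2, PAGE5, EHD3, TINAGL1, GDA, HLA-DRA, IL13RA2 and THBS1. In the siLINC01291 pair their log2 ratios lay between -8.80 and -5.94. THBS1, which encodes the matrix glycoprotein thrombospondin 1, was at 418 and 259 FPKM in A375 and 1.42 and 1.12 FPKM in SK-MEL-28. IL13RA2, the decoy receptor for interleukin 13, was at 208 and 206 FPKM in A375 and 0.605 and 0.585 FPKM in SK-MEL-28. MEOX2, a homeobox gene, was at 37.8 and 49.8 FPKM in A375 and 0.0572 and 0.0717 FPKM in SK-MEL-28, and ANPEP, the gene of aminopeptidase N, at 42.6 and 39.3 FPKM in A375 and 0.0874 and 0.0943 FPKM in SK-MEL-28. All 4 were thus high in both A375 libraries and at or below 1.42 FPKM in both SK-MEL-28 libraries. ESM1 had no count in SK-MEL-28 siNC and 10.7 FPKM in A375 siNC, and was at least 249-fold lower against a floor of 3 counts. FERMT1 (interval -12.66 to -7.76), SERPINB7 (-12.46 to -7.55) and HAPLN1 (-11.49 to -7.66) had 2 or 3 counts in SK-MEL-28 siNC.

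Transcription factors of the melanocyte lineage were for the most part expressed in both lines, with IRF4 the member furthest apart. Of 14 listed, 10 were expressed, 6 were 2-fold or more higher in SK-MEL-28 and 1 2-fold or more lower, with a median log2 ratio of 1.34 against -0.0046 over all expressed genes. SOX10, the factor that keeps neural crest and melanocyte identity, was at 80.1 and 118 FPKM in A375 and 127 and 147 FPKM in SK-MEL-28. Its log2 ratio was 0.85 in the siNC pair and 0.51 in the siLINC01291 pair, below the 2-fold mark in each, so both lines held it at a high level. PAX3, which acts with SOX10 on MITF, was at 2.3 and 1.91 FPKM in A375 and 5.96 and 4.21 FPKM in SK-MEL-28 (2.94-fold higher). LEF1, a nuclear partner of beta-catenin, was at 3.45 and 3.83 FPKM in A375 and 23.3 and 16.6 FPKM in SK-MEL-28 (7.66-fold higher). TFAP2A, a neural crest factor, was at 2.89 and 2.91 FPKM in A375 and 10.8 and 12.2 FPKM in SK-MEL-28 (4.26-fold higher). For these 3 genes both SK-MEL-28 libraries exceeded both A375 libraries.

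IRF4, which acts with MITF on the tyrosinase gene, stood far apart from the other factors, at 0.0439 and 0.0799 FPKM in A375 and 22.5 and 26.8 FPKM in SK-MEL-28. It was 458-fold higher (log2 ratio 8.84, interval 8.21 to 10.40). SOX2, a stem cell factor, went the other way at 2.76 and 3.42 FPKM in A375 and 0.054 and 0.0812 FPKM in SK-MEL-28 (31.2-fold lower). SOX5 was at 5.46 and 10.1 FPKM in A375 and 2.45 and 3.15 FPKM in SK-MEL-28 and TFE3, a relative of MITF, at 29.1 and 28.1 FPKM in A375 and 16.2 and 14.7 FPKM in SK-MEL-28, lower in SK-MEL-28 by less than 2-fold between the siNC libraries. ETV1 was at 5.89 and 6.22 FPKM in A375 and 11.2 and 7.41 FPKM in SK-MEL-28. Its siNC ratio of 1.12 was not matched in the siLINC01291 pair (0.45), and its edgeR call (adjusted p = 0.00541) was lost when either A375 library was left out.

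Melanosome and pigment genes were the list that differed most toward SK-MEL-28. Of 20 listed genes 19 were expressed, 18 of them 2-fold or more higher and 0 2-fold or more lower (median log2 ratio 5.79 in the siNC pair and 6.55 in the siLINC01291 pair). Together they took 0.0477% of counts in A375 siNC (95% Wilson interval 0.0469% to 0.0484%) and 0.802% in SK-MEL-28 siNC (0.799% to 0.805%).

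The enzymes of melanin synthesis were not at equal levels in SK-MEL-28. TYR, the rate-limiting enzyme, was at 0.112 and 0.0846 FPKM in A375 and 77.6 and 88.2 FPKM in SK-MEL-28 (635-fold higher). DCT, dopachrome tautomerase, was at 0.39 and 0.486 FPKM in A375 and 163 and 164 FPKM in SK-MEL-28 (466-fold higher). TYRP1, the third of the family, was at 0.147 and 0.0503 FPKM in A375 and 1.34 and 1.83 FPKM in SK-MEL-28, the lowest of the 3 enzymes in both SK-MEL-28 libraries. On the log2 scale TYRP1 differed by 3.22 (interval 2.65 to 4.20) in the siNC pair and by 4.94 in the siLINC01291 pair. MLANA, the melanosome antigen Melan-A, was at 0.83 and 0.774 FPKM in A375 and 286 and 321 FPKM in SK-MEL-28 (382-fold higher). The ion channel gene TRPM1 was at 0.0304 and 0.0505 FPKM in A375 and 24.4 and 36.7 FPKM in SK-MEL-28 (697-fold higher).

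Transporters of the melanosome membrane followed the enzymes. SLC45A2 was at 0.18 and 0.185 FPKM in A375 and 74.2 and 85.9 FPKM in SK-MEL-28 (418-fold higher), and OCA2 at 0.109 and 0.241 FPKM in A375 and 31.7 and 48 FPKM in SK-MEL-28 (277-fold higher). GPR143, a melanosomal receptor, was at 0.245 and 0.383 FPKM in A375 and 45 and 56.4 FPKM in SK-MEL-28 (186-fold higher). SLC24A5 had 2 counts in A375 siNC and 5.72 FPKM in SK-MEL-28 siNC (log2 ratio 7.85, interval 7.05 to 11.96). A375 was thus at or below 0.5 FPKM for every enzyme and transporter named here, in both of its libraries. Of the genes that move melanosomes, RAB27A was at 1.2 and 1.22 FPKM in A375 and 32.3 and 33.4 FPKM in SK-MEL-28, its adaptor MLPH at 0.738 and 0.501 FPKM in A375 and 36.4 and 41.6 FPKM in SK-MEL-28 and the motor gene MYO5A at 8.89 and 10.5 FPKM in A375 and 23.9 and 28 FPKM in SK-MEL-28. GPNMB, which other cell types also express, was at 41.6 and 46.6 FPKM in A375 and 168 and 167 FPKM in SK-MEL-28 (4.59-fold higher). BLOC1S5, at 2.96 and 3.14 FPKM in A375 and 3.77 and 3.4 FPKM in SK-MEL-28, was the expressed member under 2-fold.

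The start regions of these genes are shown because a letter motif is common in them. MITF is known to bind the M-box form of the E-box, whose core is CATGTG, read as CACATG on the other strand. The windows searched ran from 250 bases before to 50 bases after each RefSeq start (GRCh38.p14). CATGTG in either orientation was present for 10 of the 16 expressed pigment genes that had a window (62.5%): DCT, GPNMB, GPR143, LYST, OCA2, SLC24A5, TRPM1, TSPAN10, TYR and TYRP1. It was present for 6 of 12 other MITF-state genes (50%), for 9.87% of 9352 expressed genes and for 11.1% of all 35116 windows. By direction it was present for 17.0% of the 348 genes at least 8-fold higher in SK-MEL-28. Among the 456 at least 8-fold lower the share was 14.7%. The palindrome CACGTG, another E-box, was present for 2 of the same 16 (12.5%) and for 12.96% of expressed genes. PMEL, SLC45A2 and RAB38 had no window. The 250 bases before the start are printed 5′ to 3′ on the gene's own strand, with the motif in capitals. DCT, TRPM1 and AXL have 2 starts each in RefSeq, of which a window with the motif is shown.
TYR (chr11:89177625-89177874, + strand): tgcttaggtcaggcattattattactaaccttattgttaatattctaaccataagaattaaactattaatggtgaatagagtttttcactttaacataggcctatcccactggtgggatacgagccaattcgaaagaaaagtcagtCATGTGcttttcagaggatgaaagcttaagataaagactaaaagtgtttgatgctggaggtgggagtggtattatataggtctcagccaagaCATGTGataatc
DCT (chr13:94479683-94479932, - strand): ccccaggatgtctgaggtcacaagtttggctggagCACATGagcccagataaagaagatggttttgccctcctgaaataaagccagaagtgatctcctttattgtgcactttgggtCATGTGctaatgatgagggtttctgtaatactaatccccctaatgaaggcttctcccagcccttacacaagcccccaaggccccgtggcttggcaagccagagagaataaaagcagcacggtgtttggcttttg
TRPM1 (chr15:31161161-31161410, - strand): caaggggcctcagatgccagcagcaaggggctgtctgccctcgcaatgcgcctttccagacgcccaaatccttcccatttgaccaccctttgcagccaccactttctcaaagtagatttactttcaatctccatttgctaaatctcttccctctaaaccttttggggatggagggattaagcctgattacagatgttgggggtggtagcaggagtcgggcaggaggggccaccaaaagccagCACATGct
OCA2 (chr15:28099316-28099565, - strand): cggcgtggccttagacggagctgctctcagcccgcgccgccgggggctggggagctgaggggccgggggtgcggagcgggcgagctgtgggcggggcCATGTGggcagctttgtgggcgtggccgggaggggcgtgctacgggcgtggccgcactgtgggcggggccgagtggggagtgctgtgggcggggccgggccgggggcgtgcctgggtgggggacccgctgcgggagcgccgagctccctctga
AXL (chr19:41226505-41226754, + strand): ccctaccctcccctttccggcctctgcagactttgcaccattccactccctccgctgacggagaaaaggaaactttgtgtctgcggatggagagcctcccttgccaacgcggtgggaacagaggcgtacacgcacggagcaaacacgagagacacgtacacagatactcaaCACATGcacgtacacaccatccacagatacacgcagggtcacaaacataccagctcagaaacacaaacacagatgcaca
TYR holds the motif at 104 and at 12 bases before its start, DCT at 215 and at 134, TRPM1 at 8 and OCA2 at 153. The AXL window holds it at 79 bases before the start although AXL was 162-fold lower in SK-MEL-28, and TYRP1, with 2 matches in its own window, stayed below 2 FPKM in both SK-MEL-28 libraries. A match is a description of letters and says nothing of binding in these cells.

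Other genes of the MITF-high state had the same direction. Of 17 expressed, 16 were 2-fold or more higher and 0 2-fold or more lower (median log2 ratio 2.90). BIRC7, an inhibitor of apoptosis, was at 0.271 and 0.424 FPKM in A375 and 136 and 172 FPKM in SK-MEL-28 (491-fold higher). MBP, myelin basic protein, was at 0.081 and 0.0552 FPKM in A375 and 24.4 and 29.5 FPKM in SK-MEL-28 (328-fold higher), and APOE, the apolipoprotein, at 0.45 and 0.974 FPKM in A375 and 46.6 and 73.2 FPKM in SK-MEL-28 (110.0-fold higher). BCL2A1, an anti-apoptotic member of the BCL2 family, was at 0.909 and 0.63 FPKM in A375 and 39.3 and 59.5 FPKM in SK-MEL-28 (45.7-fold higher). SEMA6A and QPCT were 34.6-fold higher and 34.3-fold higher. In each of these 6 genes both SK-MEL-28 libraries were above both A375 libraries.

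**Figure D2:**
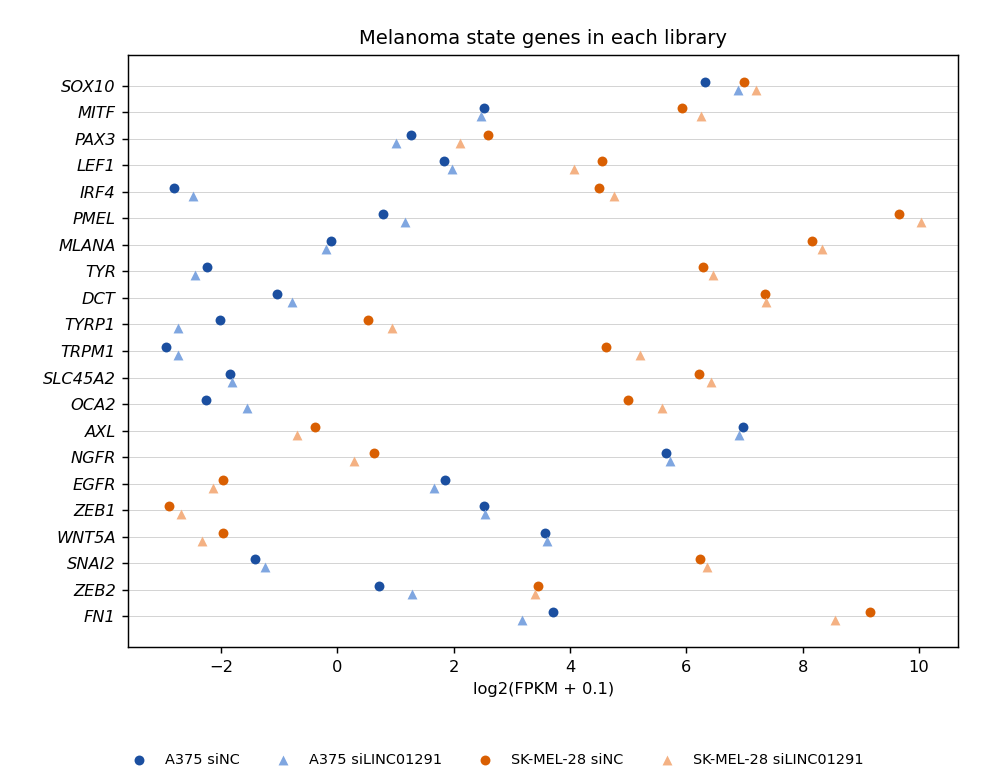
Level of 21 lineage, pigment and dedifferentiated-state genes in each of the 4 libraries, as log2(FPKM + 0.1) on the x axis, with circles for siNC and triangles for siLINC01291, blue for A375 and orange for SK-MEL-28. The circle and triangle of a line lie close together for most genes, while the lines are apart for MITF, the pigment genes, AXL, NGFR, ZEB1 and SNAI2, and SOX10 is high in all 4 libraries.

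Genes of the neural crest-like state did not share a direction. Of 16 listed, 9 were expressed, 5 2-fold or more higher and 4 2-fold or more lower in SK-MEL-28. NGFR was at 50.1 and 52.4 FPKM in A375 and 1.46 and 1.12 FPKM in SK-MEL-28 (29.9-fold lower). NES, which encodes the intermediate filament nestin, was at 48.9 and 61.3 FPKM in A375 and 0.493 and 0.482 FPKM in SK-MEL-28 (85.2-fold lower), and SLITRK6, a neuronal surface protein gene, at 11.3 and 9.24 FPKM in A375 and 0.0691 and 0.0385 FPKM in SK-MEL-28 (119-fold lower). These were high in both A375 libraries. RXRG, the retinoid X receptor gamma gene, was at 0.192 and 0.535 FPKM in A375 and 14.6 and 16.8 FPKM in SK-MEL-28 (76.2-fold higher), and A2M, a protease inhibitor gene, at 1.72 and 2.69 FPKM in A375 and 113 and 138 FPKM in SK-MEL-28 (74.7-fold higher), high in both SK-MEL-28 libraries.

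Genes of the dedifferentiated state were mostly higher in A375. Of 28 expressed, 19 were 2-fold or more lower in SK-MEL-28 and 6 2-fold or more higher, with a median log2 ratio of -1.85 (-1.91 in the siLINC01291 pair). Their summed counts went the other way, at 1.35% of all counts in SK-MEL-28 siNC against 0.651% in the A375 siNC library. That sum includes FN1, whose level is given below, and the reason for its direction was not tested. The sum in FPKM did not go that way. It was 1405 and 1203 FPKM in A375 and 1302 and 950 FPKM in SK-MEL-28. WNT5A, a secreted ligand of non-canonical signalling, was at 11.8 and 12.1 FPKM in A375 and 0.156 and 0.0998 FPKM in SK-MEL-28 (63-fold lower). INHBA, the inhibin beta A subunit, was at 9.96 and 12.1 FPKM in A375 and 0.152 and 0.152 FPKM in SK-MEL-28 (55.1-fold lower). SLIT2 was 38-fold lower and BDNF 25.4-fold lower. The log2 ratio of BDNF, -4.67 in the siNC pair, was -1.19 when taken from log2(FPKM + 1). The actin-binding tropomyosin genes TPM1 and TPM2 were 18.8-fold lower and 10.4-fold lower, the latter at 61.5 and 65.1 FPKM in A375 and 5.18 and 6.33 FPKM in SK-MEL-28. Caveolin gene CAV1 was at 109.6 and 81.4 FPKM in A375 and 22.1 and 15.1 FPKM in SK-MEL-28 (4.36-fold lower), and the AP-1 subunit gene FOSL1 at 356 and 307 FPKM in A375 and 105 and 89.5 FPKM in SK-MEL-28 (2.97-fold lower). In all of these both A375 libraries exceeded both SK-MEL-28 libraries.

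Members in the other direction included SNAI2, FN1, NT5E, TNC and CXCL8. FN1, which encodes fibronectin, was at 13 and 8.89 FPKM in A375 and 569 and 374 FPKM in SK-MEL-28 (49.9-fold higher; interval 5.61 to 5.68 in log2 units). It was the highest of the dedifferentiated-state genes in both SK-MEL-28 libraries. NT5E, the ectonucleotidase CD73, was at 17.9 and 21.1 FPKM in A375 and 56.1 and 44.6 FPKM in SK-MEL-28 (3.56-fold higher). TNC, the matrix protein tenascin C, was at 67.9 and 72.2 FPKM in A375 and 136 and 85.3 FPKM in SK-MEL-28. CXCL8, the chemokine interleukin 8, was at 16.6 and 7.79 FPKM in A375 and 30.8 and 10.6 FPKM in SK-MEL-28, so its SK-MEL-28 siLINC01291 library lay below its A375 siNC library. The edgeR calls of TNC (adjusted p = 0.00516) and CXCL8 (adjusted p = 0.00134) were lost when either A375 library was left out, and CXCL8 also changed sign without SK-MEL-28 siNC. VIM, the filament vimentin, was at 177 and 161 FPKM in A375 and 173 and 151 FPKM in SK-MEL-28 and did not pass (adjusted p = 0.218 in edgeR).

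Transcription factors of the epithelial-mesenchymal transition were split by paralog. ZEB1 was at 5.65 and 5.69 FPKM in A375 and 0.0353 and 0.055 FPKM in SK-MEL-28 (117-fold lower), while ZEB2 was at 1.54 and 2.34 FPKM in A375 and 10.8 and 10.5 FPKM in SK-MEL-28 (7.98-fold higher). SNAI2 was at 0.276 and 0.325 FPKM in A375 and 75.3 and 81.6 FPKM in SK-MEL-28 (289-fold higher, interval 7.75 to 8.87 in log2 units). TWIST2 was at 4.13 and 4.83 FPKM in A375 and 0.0544 and 0.0182 FPKM in SK-MEL-28, with 3 counts in SK-MEL-28 siNC (log2 ratio -5.39, interval -8.35 to -4.49). ZEB1 and TWIST2 were thus the higher in A375, and SNAI2 and ZEB2 in SK-MEL-28. TWIST1, at 4.72 and 5.46 FPKM in A375 and 3.24 and 4.12 FPKM in SK-MEL-28, did not pass (edgeR adjusted p = 0.0931). Among cadherins, CDH13 was at 6.16 and 6.56 FPKM in A375 and 0.0215 and 0.0277 FPKM in SK-MEL-28 and CDH3, P-cadherin, at 0.0505 and 0.0343 FPKM in A375 and 4.12 and 4.67 FPKM in SK-MEL-28, in opposite directions. Of 13 expressed genes of the cadherin and transition list, 4 were 2-fold or more higher and 7 2-fold or more lower.

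Receptor tyrosine kinases were mostly higher in A375. Of 20 expressed genes on that list, which also holds the ligand gene PDGFC, 12 were 2-fold or more lower in SK-MEL-28 and 2 2-fold or more higher (median log2 ratio -1.83). EPHA2, an ephrin receptor, was at 122 and 106 FPKM in A375 and 0.999 and 0.689 FPKM in SK-MEL-28 (105-fold lower). DDR1, a collagen receptor, was at 9.62 and 11.7 FPKM in A375 and 0.197 and 0.153 FPKM in SK-MEL-28 (41.5-fold lower). EGFR was at 3.5 and 3.07 FPKM in A375 and 0.157 and 0.128 FPKM in SK-MEL-28 (19-fold lower). PDGFRB had 1 count in SK-MEL-28 siNC and 1.56 FPKM in A375 siNC (log2 ratio -6.68, interval -13.48 to -5.68). MERTK, of the same receptor family as AXL, was the reverse of it, at 0.141 and 0.199 FPKM in A375 and 10.4 and 15.6 FPKM in SK-MEL-28 (75.4-fold higher). Each line thus had the higher level of a different member of that family. KIT matched no row.

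Signalling genes downstream of BRAF had no common direction. Of 24 ERK pathway genes 7 were 2-fold or more higher and 4 2-fold or more lower. Over all expressed genes the shares were 18.7% and 18.3%. The median of the ERK genes (0.26) was nearer to 0 in the siLINC01291 pair (0.0046). MYC was at 5.18 and 4.2 FPKM in A375 and 33.3 and 38 FPKM in SK-MEL-28 (7.3-fold higher), and SPRY1, a feedback inhibitor, at 1.46 and 2.41 FPKM in A375 and 9.28 and 8.47 FPKM in SK-MEL-28 (7.17-fold higher). The phosphatase gene DUSP5 was 3.01-fold lower. Of 20 PI3K, AKT and mTOR genes 5 were 2-fold or more higher and 1 2-fold or more lower. The other 14 were within 2-fold, where 62.9% of all expressed genes were. The regulatory subunit gene PIK3R3 was at 1.92 and 2.21 FPKM in A375 and 34 and 27.4 FPKM in SK-MEL-28 (20.1-fold higher) and the catalytic subunit gene PIK3CD at 4.71 and 6.48 FPKM in A375 and 35.9 and 54.1 FPKM in SK-MEL-28 (8.66-fold higher). IRS1, an adaptor of insulin receptors, was the member 2-fold or more lower, at 5.76 and 5.74 FPKM in A375 and 2.19 and 2.05 FPKM in SK-MEL-28.

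Of 19 expressed G1 cyclins, kinases, inhibitors and their partners 4 were 2-fold or more higher and 4 2-fold or more lower, shares near those over all expressed genes. CDKN2A, which encodes p16 and p14ARF, was at 0.74 and 0.645 FPKM in A375 and 22 and 22.9 FPKM in SK-MEL-28 (33.1-fold higher). Its neighbour CDKN2B, the p15 gene, was at 0.0888 and 0.0705 FPKM in A375 and 7.9 and 7.48 FPKM in SK-MEL-28 (84.7-fold higher). MTAP, a metabolic gene beside them, was at 12.2 and 12.5 FPKM in A375 and 3.44 and 3.24 FPKM in SK-MEL-28 (3.11-fold lower), so it was expressed in A375 where CDKN2A and CDKN2B were below 1 FPKM. CDKN1A, the p21 gene, was at 50.9 and 51.8 FPKM in A375 and 9.93 and 7.02 FPKM in SK-MEL-28 (4.5-fold lower). CDK2 was at 24.1 and 33.9 FPKM in A375 and 66.4 and 90.8 FPKM in SK-MEL-28 (3.13-fold higher), and CDK6 at 28.6 and 43.1 FPKM in A375 and 7.87 and 9.38 FPKM in SK-MEL-28 (3.18-fold lower). CDKN1B, which encodes the inhibitor p27, was at 6.75 and 9.16 FPKM in A375 and 12.5 and 7.91 FPKM in SK-MEL-28, a log2 ratio of 1.07 in the siNC pair and -0.01 in the siLINC01291 pair, and edgeR did not pass it (adjusted p = 0.0974).

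Among p53 and its targets 10 of 27 expressed genes were 2-fold or more lower in SK-MEL-28 and 3 2-fold or more higher. EDA2R, a receptor of the tumour necrosis factor family, was at 3.82 and 4.51 FPKM in A375 and 0.15 and 0.0752 FPKM in SK-MEL-28 (20.2-fold lower), and FAS, the death receptor, at 3.02 and 1.38 FPKM in A375 and 0.274 and 0.122 FPKM in SK-MEL-28 (9.34-fold lower). BTG2 was 5.65-fold lower and the DNA repair gene DDB2 5.39-fold lower, at 11.9 and 14.3 FPKM in A375 and 1.93 and 2.11 FPKM in SK-MEL-28. TP53INP1 and TP53INP2 were 6.24-fold higher and 6.29-fold higher. In the BCL2 family 3 of 15 expressed genes were 2-fold or more higher and 5 2-fold or more lower. The shares over all expressed genes were 18.7% and 18.3%. BCL2L1, which encodes the survival protein BCL-XL, was at 18 and 19.4 FPKM in A375 and 4 and 6.15 FPKM in SK-MEL-28 (3.94-fold lower), and MCL1, another survival gene, at 102 and 81 FPKM in A375 and 36.7 and 21.1 FPKM in SK-MEL-28 (2.45-fold lower). BCL2L11, the gene of the death-promoting protein BIM, was at 1.35 and 1.05 FPKM in A375 and 4.56 and 2.61 FPKM in SK-MEL-28 (3.82-fold higher). With BCL2A1 above, each line had survival genes at the higher level. The MCL1 call was lost in edgeR without A375 siNC.

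Proliferation genes were the list with the smallest differences. Of 27 mitosis and replication genes 25 were within 2-fold between the siNC libraries, with a median log2 ratio of -0.19. MCM2 and MCM4, subunits of the replicative helicase, were the exceptions, at 42.1 and 39.5 FPKM in A375 and 10.3 and 11 FPKM in SK-MEL-28 for MCM2 and 65.6 and 56.9 FPKM in A375 and 28.3 and 25.3 FPKM in SK-MEL-28 for MCM4. In the siLINC01291 pair 5 members were 2-fold or more lower and 1 2-fold or more higher.

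Genes of antigen presentation separated by class. Of 10 expressed MHC class II genes 9 were 2-fold or more lower in SK-MEL-28 and 0 higher (median log2 ratio -5.50). CD74, the invariant chain, was at 153 and 158 FPKM in A375 and 0.344 and 0.455 FPKM in SK-MEL-28 (381-fold lower), and HLA-DRA at 149 and 166 FPKM in A375 and 0.409 and 0.437 FPKM in SK-MEL-28 (286-fold lower). HLA-DRB1 had no count in SK-MEL-28 siNC and 10.3 FPKM in A375 siNC, at least 109-fold lower against a floor of 3 counts. CIITA, the factor that switches these genes on, was at 4.33 and 4.37 FPKM in A375 and 0.106 and 0.139 FPKM in SK-MEL-28 (34.9-fold lower). Both A375 libraries held all 10 genes above 2 FPKM. HLA-DMA, an exchange factor for class II peptides, was the highest of the 9 in SK-MEL-28 siNC, at 1.20 FPKM, while RFX5, which acts with CIITA and is named here as the member within 2-fold, was at 25 and 27.4 FPKM in A375 and 13.7 and 13.5 FPKM in SK-MEL-28.

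Of 17 expressed class I genes 13 were within 2-fold, where 62.9% of all expressed genes were. Of the rest 2 were 2-fold or more higher and 2 2-fold or more lower (median log2 ratio 0.23). HLA-F was at 0.456 and 0.494 FPKM in A375 and 16.5 and 19.6 FPKM in SK-MEL-28 (39.9-fold higher). NLRC5, the activator of class I genes, was at 1.55 and 1.58 FPKM in A375 and 0.556 and 0.554 FPKM in SK-MEL-28 (2.43-fold lower). HLA genes share reads with near-identical copies, so their values are uncertain. Of 21 interferon response genes 10 were 2-fold or more higher and 4 2-fold or more lower. BST2, tetherin, was at 1.47 and 1.65 FPKM in A375 and 69.8 and 79.2 FPKM in SK-MEL-28 (52-fold higher), and IFI6 at 7.93 and 9.94 FPKM in A375 and 82.2 and 86.1 FPKM in SK-MEL-28 (11.7-fold higher). MX2, an antiviral GTPase gene, was at 5.18 and 5.98 FPKM in A375 and 0.324 and 0.296 FPKM in SK-MEL-28 (13.9-fold lower), and IFITM2 at 7.58 and 8.36 FPKM in A375 and 0.225 and 0.451 FPKM in SK-MEL-28 (25.2-fold lower). The list thus held strong members in each direction.

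Cytokine and chemokine genes were mostly higher in A375: 12 of 17 expressed were 2-fold or more lower in SK-MEL-28 and 2 2-fold or more higher (median log2 ratio -2.70). CXCL1, a neutrophil chemokine gene, was at 51.3 and 67.5 FPKM in A375 and 2.42 and 3.22 FPKM in SK-MEL-28 (18.3-fold lower), and its relative CXCL2 had no count in SK-MEL-28 siNC (at least 36-fold lower against a floor of 3 counts). TGFA, a ligand of EGFR, was at 37.3 and 36.5 FPKM in A375 and 1.3 and 0.643 FPKM in SK-MEL-28 (24.9-fold lower), and VEGFC, the lymphatic growth factor, at 15.1 and 15.9 FPKM in A375 and 0.467 and 0.26 FPKM in SK-MEL-28 (27-fold lower). IL24, an interleukin known for its expression in melanocytic cells, was at 39.7 and 46 FPKM in A375 and 2.18 and 1.19 FPKM in SK-MEL-28 (15.8-fold lower). CCL20 was the exception of this size, at 0.547 and 0.55 FPKM in A375 and 8.94 and 9 FPKM in SK-MEL-28 (17.3-fold higher). Among 12 expressed checkpoint and NK ligand genes, CEACAM1, an adhesion molecule, was at 0.403 and 0.912 FPKM in A375 and 41 and 37.3 FPKM in SK-MEL-28 (112-fold higher) and CD70 at 32.5 and 38.3 FPKM in A375 and 0.599 and 0.578 FPKM in SK-MEL-28 (44.7-fold lower), while 6 were within 2-fold.

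More matrix genes were higher in A375 than in SK-MEL-28. Of 29 expressed collagens, laminins and other matrix genes 17 were 2-fold or more lower in SK-MEL-28 and 5 2-fold or more higher (median log2 ratio -1.82). Summed over the list, they took 1.45% of counts in SK-MEL-28 siNC against 0.973% in the A375 siNC library. That sum includes FN1, whose level is given above. In FPKM the sum was 1117 and 1019 in A375 and 1251 and 950 in SK-MEL-28. It was thus higher in SK-MEL-28 in the siNC pair and lower in the siLINC01291 pair. The basement membrane collagens COL4A1 and COL4A2 were at 16.9 and 20.7 FPKM in A375 and 0.106 and 0.123 FPKM in SK-MEL-28 for COL4A1 and 32.2 and 33.5 FPKM in A375 and 0.148 and 0.123 FPKM in SK-MEL-28 for COL4A2. COL5A2, a fibrillar collagen gene, was at 51.7 and 48.6 FPKM in A375 and 0.357 and 0.627 FPKM in SK-MEL-28 (124-fold lower). COL11A1 was the reverse, at 0.128 and 0.183 FPKM in A375 and 10.7 and 9.66 FPKM in SK-MEL-28 (89.7-fold higher). The matrix genes higher in SK-MEL-28 thus included COL11A1 and FN1.

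Integrin subunits, the receptors for matrix proteins, were split: of 14 expressed, 4 were 2-fold or more higher and 5 2-fold or more lower. ITGB3, the beta 3 subunit, was at 8.01 and 8.38 FPKM in A375 and 56 and 54.1 FPKM in SK-MEL-28 (7.94-fold higher), and ITGA3 at 48 and 44.9 FPKM in A375 and 3.28 and 2.8 FPKM in SK-MEL-28 (12.8-fold lower). ITGB4, which pairs with alpha 6 in hemidesmosomes, was at 2.37 and 2.95 FPKM in A375 and 0.0552 and 0.0302 FPKM in SK-MEL-28 (32.6-fold lower). Matrix proteases and their inhibitors were 7 higher and 5 lower of 20. The membrane-bound protease gene MMP14 was at 17.7 and 22.8 FPKM in A375 and 179.9 and 246 FPKM in SK-MEL-28 (11.5-fold higher), and MMP2, which encodes a gelatinase that MMP14 activates, at 36.8 and 42.7 FPKM in A375 and 1.64 and 1.47 FPKM in SK-MEL-28 (19.6-fold lower). The 2 genes were thus highest in different lines.

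Genes of the YAP and TEAD group, which respond to cell shape and adhesion, were more often lower than higher in SK-MEL-28. Of 17 expressed 8 were 2-fold or more lower and 2 2-fold or more higher (median log2 ratio -0.95). CCN1, a secreted matrix-associated target, was at 93.4 and 81.9 FPKM in A375 and 13.3 and 11.2 FPKM in SK-MEL-28 (6.17-fold lower), and AMOTL2, a regulator of YAP, at 38.7 and 31.5 FPKM in A375 and 8.35 and 5.55 FPKM in SK-MEL-28 (4.07-fold lower). CRIM1 was at 96.2 and 83.9 FPKM in A375 and 4.05 and 2.44 FPKM in SK-MEL-28 (20.8-fold lower). TEAD1 itself was higher, at 16.9 and 18.7 FPKM in A375 and 51.7 and 45.8 FPKM in SK-MEL-28 (3.49-fold higher). The letters GGAATG, the core of the TEAD site, were in the start windows of 8 of 13 expressed members with a window (61.5%) and of 14.8% of expressed genes, on either strand. The AP-1 letters TGANTCA were in 3 of 21 expressed dedifferentiated-state genes with a window (14.3%), in 15.6% of the 456 genes at least 8-fold lower, in 9.48% of the 348 at least 8-fold higher and in 6.89% of expressed genes.

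S100 calcium-binding proteins include both a melanocytic marker and proteins of motile cells. S100B, the marker, was at 3.47 and 5.69 FPKM in A375 and 97.7 and 96.2 FPKM in SK-MEL-28 (31.7-fold higher). S100A4 was at 178 and 246 FPKM in A375 and 2.58 and 2.12 FPKM in SK-MEL-28 (59.1-fold lower), and S100A6 at 648 and 743 FPKM in A375 and 40.5 and 49.5 FPKM in SK-MEL-28 (14-fold lower). S100B was thus the exception among 11 expressed members, of which 6 were 2-fold or more lower and 1 2-fold or more higher.

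Cancer-testis antigens, genes normally confined to germ cells, differed gene by gene. Of 23 expressed 12 were 2-fold or more lower in SK-MEL-28 and 5 2-fold or more higher. MAGEA4 was at 210.3 and 213 FPKM in A375 and 1.01 and 0.837 FPKM in SK-MEL-28 (180.3-fold lower), and MAGEC2 at 66.6 and 64.9 FPKM in A375 and 0.323 and 0.358 FPKM in SK-MEL-28 (165-fold lower). MAGEC1 was the reverse, at 0.25 and 0.213 FPKM in A375 and 17.3 and 15.1 FPKM in SK-MEL-28 (73.8-fold higher). XAGE1B had 1 count in SK-MEL-28 siNC and a log2 ratio of -7.33 (interval -14.12 to -6.33). Several of these genes have near-identical copies, and how reads were shared among copies was not given, so their values are uncertain.

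Positional identity genes differed too. Of 26 expressed HOX genes 11 were 2-fold or more lower and 4 2-fold or more higher in SK-MEL-28. HOXD4 was at 1.11 and 0.937 FPKM in A375 and 15.5 and 13.2 FPKM in SK-MEL-28 (15.1-fold higher) and HOXD3 at 0.096 and 0.144 FPKM in A375 and 2.02 and 1.88 FPKM in SK-MEL-28 (20.1-fold higher), whereas HOXD9, of the same cluster, was at 3.81 and 4.12 FPKM in A375 and 0.236 and 0.2 FPKM in SK-MEL-28 (12.6-fold lower). HOXC12 was 33.6-fold lower, and HOXC11, with 2 counts in SK-MEL-28 siNC, had a log2 ratio of -6.18 (interval -10.16 to -5.24).

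Of 19 glycolysis and respiratory regulator genes 11 were within 2-fold, a share near that over all expressed genes. PPARGC1A, the coactivator of mitochondrial biogenesis that MITF is known to act on, was at 0.151 and 0.153 FPKM in A375 and 1.99 and 2.02 FPKM in SK-MEL-28 (14.4-fold higher). HK2, a hexokinase gene, was at 28 and 23.2 FPKM in A375 and 112 and 100.5 FPKM in SK-MEL-28 (4.53-fold higher), and PDK1 at 2.11 and 1.84 FPKM in A375 and 9.46 and 7.27 FPKM in SK-MEL-28 (5.11-fold higher). The 3 genes 2-fold or more lower included CA9, a carbonic anhydrase gene, and SLC16A3, a lactate exporter gene. Of 19 glutathione and thioredoxin genes 11 were likewise within 2-fold, and HMOX1, haem oxygenase 1, was at 27.1 and 29.4 FPKM in A375 and 252 and 311 FPKM in SK-MEL-28 (10.6-fold higher). Of 9 listed metallothionein genes 3 were expressed, and MT1F, with 3 counts in A375 siNC, was at 3.9 FPKM in SK-MEL-28 siNC (log2 ratio 5.63, interval 4.84 to 8.70).

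The 13 protein genes of the mitochondrial genome took 3.25% of counts in A375 siNC (95% Wilson interval 3.24% to 3.25%) and 6.23% in SK-MEL-28 siNC (6.22% to 6.24%). MT-CO2, a subunit of cytochrome oxidase, was at 3157 and 2877 FPKM in A375 and 12168 and 13438 FPKM in SK-MEL-28 (4.39-fold higher). MT-CO3, another subunit, was at 5544 and 4925 FPKM in A375 and 7595 and 7454 FPKM in SK-MEL-28 (1.56-fold higher). All 13 had ratios above 0, 7 of them at least 2-fold, or 4 when counts were scaled to library totals alone. MT-ND3, named here for this value, had a ratio below 0 under that scaling.

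**Figure D3:**
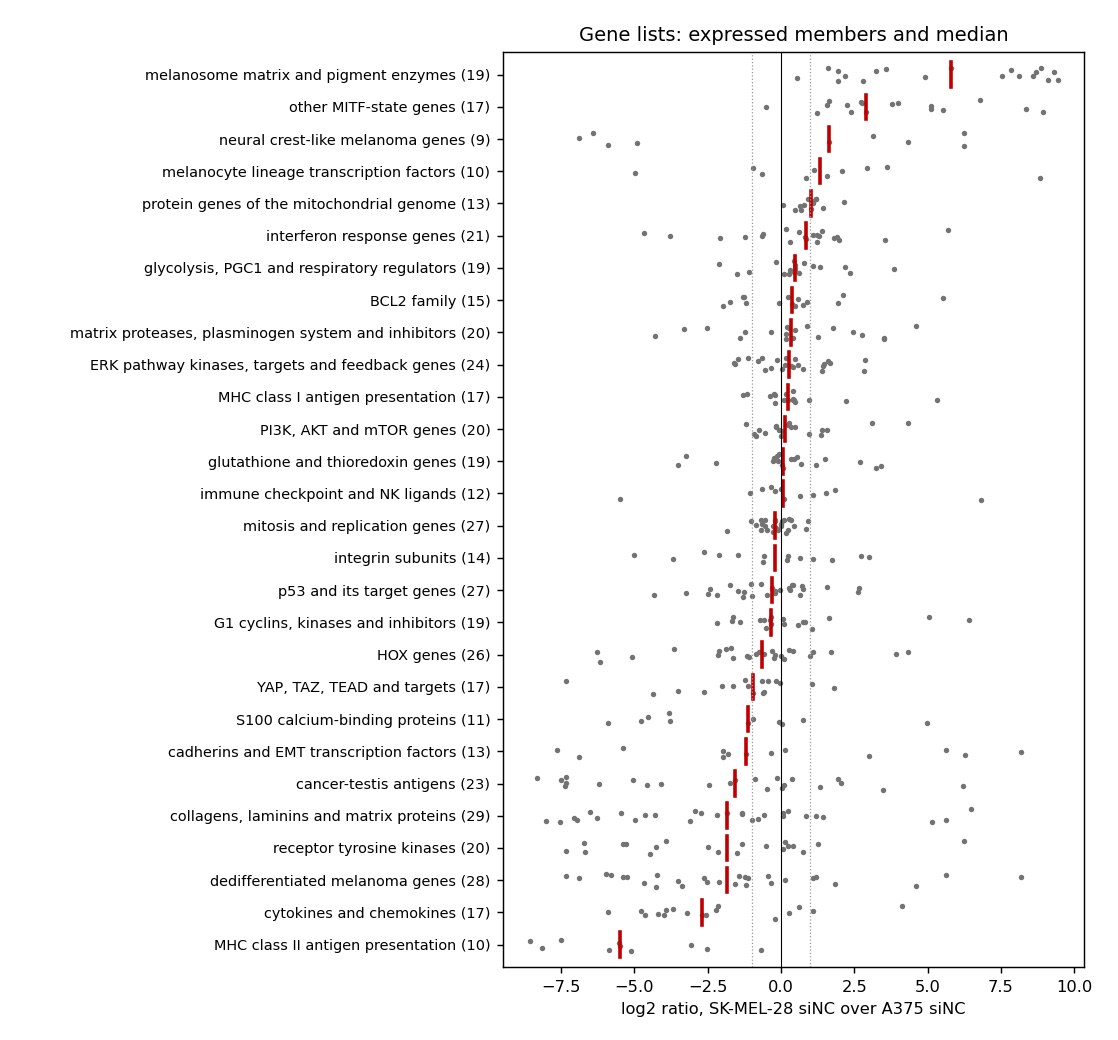
Log2 ratio of SK-MEL-28 siNC over A375 siNC for the expressed members of 28 gene lists, 1 grey point per gene, with the list's median as a red bar, the number of members in parentheses and dotted lines at 2-fold. Pigment genes have the highest median (5.79) and MHC class II genes the lowest (-5.50), and mitosis and replication genes gather near 0.

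Expressed protein-coding genes were not equally shifted on every chromosome. Over the autosomes 17.9% of 10650 were 2-fold or more higher in SK-MEL-28 and 14.7% 2-fold or more lower. On chromosome 22 the shares were 39.1% and 7.42% of 256 genes (median log2 ratio 0.74), and on chromosome 2 they were 35.0% and 7.598% of 737 genes (median 0.65). Chromosome 14 had the next median (0.47), with 22.6% and 6.30% of 349 genes, while the shares of higher genes were larger on chromosomes 18 (27.1%), 21 (26.0%) and 8 (24.8%). The medians of chromosomes 22, 2 and 14 in the siLINC01291 pair were 0.81, 0.62 and 0.39, and stayed above 0 under scaling to library totals (0.55, 0.46 and 0.29). In the other direction the lowest medians were on chromosomes 16 (-0.33), 12 (-0.28), 13 (-0.26) and 19 (-0.25), which in the siLINC01291 pair were at -0.24, -0.27, -0.27 and -0.10. The largest share of lower genes was on chromosome 11 (22.8% of 646 genes).

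Runs of neighbouring genes are given by the 2 that lay furthest apart. Of runs of 41 consecutive expressed protein-coding genes, the lowest median (-1.52) belonged to the long arm of chromosome 11, chr11:123069865-133956985 from CLMP to IGSF9B (GENCODE release 29, GRCh38), where 29 genes were 2-fold or more lower and 1 higher. The highest (1.502) belonged to chr2:169479178-177223958 from BBS5 to HNRNPA3, where 31 were higher and 3 lower, and which holds the HOXD cluster. Both runs were chosen for their values and carry no test. In the siLINC01291 pair their medians were -1.48 and 1.52.

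**Figure D4:**
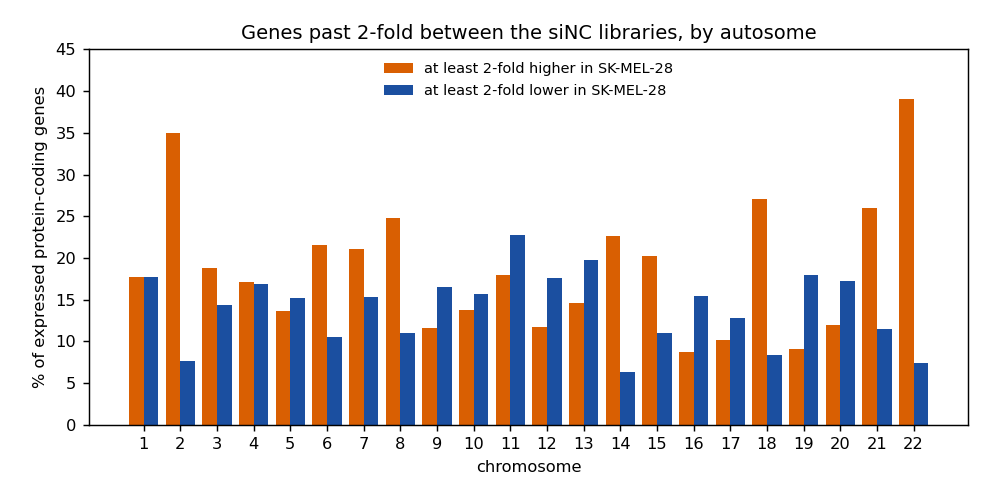
Share of expressed protein-coding genes (y axis, %) on each autosome (x axis) that were 2-fold or more higher (orange) or 2-fold or more lower (blue) in SK-MEL-28 siNC than in A375 siNC. Chromosomes 22 and 2 have the tallest orange bars (39.1% and 35.0%), and chromosome 11 has the tallest blue bar (22.8%).

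The siLINC01291 libraries, which share no library with the siNC pair, held most of these differences. Of 5141 genes past 2-fold between the siNC libraries 4349 (84.6%) were past 2-fold the same way between the siLINC01291 libraries, 53 had the opposite sign and 7 were past 2-fold the opposite way. Among the 1623 of them that the minimum of 10 FPKM in the higher line kept, 1408 (86.8%) held. Across genes the ratios of both pairs had a Pearson correlation of 0.975 and a Spearman correlation of 0.947, given as a description, since genes are not independent replicates.

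**Figure D5:**
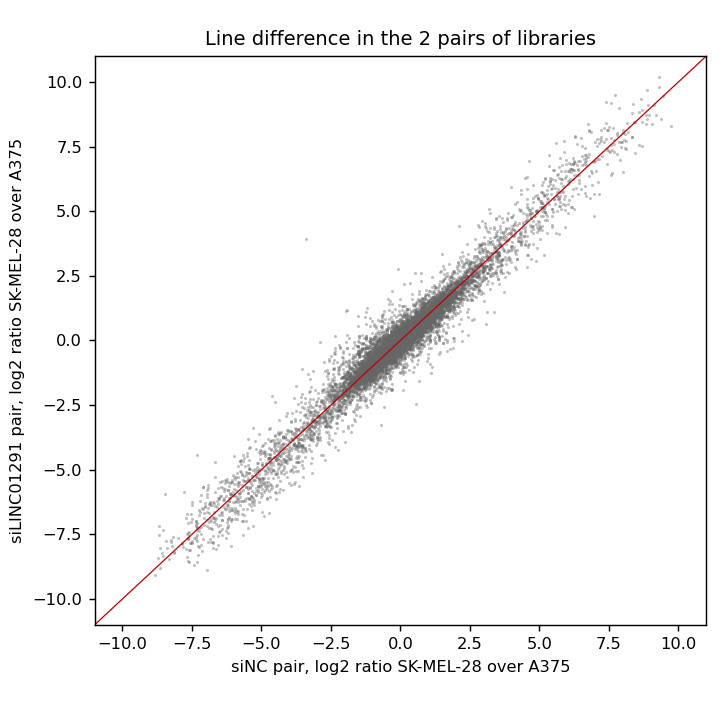
Log2 ratio of SK-MEL-28 over A375 for each expressed gene in the siNC pair (x axis) and in the siLINC01291 pair (y axis), with the line of equal ratio in red. The points follow the line, with a Pearson correlation of 0.975 across genes, and few lie where the pairs have opposite signs.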

How the data were processed

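Per the labels' protocols, libraries were built from oligo(dT)-selected RNA for Illumina sequencing. Reads were trimmed and freed of duplicates and low-quality sequence with fastp, freed of ribosomal RNA, aligned with HISAT2, joined to newly assembled StringTie transcripts and counted per gene with HTSeq. Removal of duplicates can lower the highest counts. The submitters' processing notes name hg19 as the build, and give no role for the edgeR and DESeq2 they list. Strand and the handling of reads that fit several genes are not given in the sources used here, so antisense, overlapping and near-identical genes are uncertain.

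The deposited counts are whole numbers per gene and were used for ratios and tests. The deposited FPKM values were used as levels. The deposited CPM values equal counts over a total of which 0.215% to 0.343% lies outside the listed genes, and the deposited TPM values, which sum to 994349 to 996647, were not used.

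Counts of the siNC libraries were scaled by TMM with 2 as the prior count (edgeR 4.0.16, R 4.3.3). Their ratio has no test. The quasi-likelihood test in edgeR took genes with at least 1 FPKM in at least 2 of 4 libraries and used Benjamini-Hochberg adjustment. Alternatives were DESeq2 1.42.0, its size factors, library totals, a prior count of 0.5 and log2(FPKM + 1). Others were FPKM of at least 5 or no minimum, no siRNA term, and leaving out each library. The fits without a library also had no siRNA term. Gene types and positions came from GENCODE release 29, which held 13559 of the 13875 genes, and promoter windows from RefSeq (GRCh38.p14).

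The genes and the 33 lists were chosen with earlier results of these data known. The genes named are MITF, PMEL and AXL, the 15 highest and 15 lowest ratios at 10 FPKM or more, the 5 most abundant per line, up to 6 per list by size of ratio, and any lineage, pigment or dedifferentiated-state gene. Genes of chromosome Y and XIST are not named. ZEB2, CIITA, RFX5, CDKN1B and MT-ND3 were named after their values were seen.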

Additional observations from a re-analysis of the deposited data

Results flagged for a closer look

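There were 7 genes past 2-fold in opposite directions in the siNC and siLINC01291 pairs, and the difference between the pairs was not tested. Most are pseudogenes or short RNAs with few counts. NSFP1, an unprocessed pseudogene, had a log2 ratio of -3.41 in the siNC pair and 3.94 in the siLINC01291 pair. Its counts were 59 in A375 siNC, 7 in A375 siLINC01291, 3 in SK-MEL-28 siNC and 112 in SK-MEL-28 siLINC01291. It is a copy of a coding gene, so its counts are uncertain.

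The processed pseudogene ENSG00000227329 was at -1.19 and 1.24, and ENSG00000226744 at -1.97 and 1.14, with at most 30 and 11 counts in any library. CAB39P1 was at 1.15 and -1.04, and SPTLC1P1 at 1.10 and -1.26, with at most 17 and 15 counts. A copy of Y_RNA was at -1.91 and 1.16 and MIR6069 at -1.25 and 1.09, each with at most 6 counts in any library and 0 in at least 1 of them, so both lie near the floor of 3 counts.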

How the results depend on the processing

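With 1 library per group the spread between libraries was not measured, the intervals of the siNC ratios cover counting error only, and differences near the floor of 3 counts per library are not resolved. Against TMM, library totals move the median of all genes by 0.19 in log2 units toward A375, and the share of higher calls goes from 50.5% to 41.6%. At 5 FPKM or more 1475 genes were at least 2-fold higher and 1016 lower, and on the log2(FPKM + 1) scale 1623 were higher. The other alternatives kept both counts within 1.5 times.

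In edgeR, leaving out a library gave 3235 to 4213 higher and 3031 to 4073 lower genes. The lowest counts came without A375 siNC (3235 and 3031), followed by those without A375 siLINC01291 (3328 and 3131). The fits that left out a library also had no siRNA term, so the effects of both changes are not separated there. DESeq2 called 4080 and 3821, all among edgeR's calls. Of 205 named genes past 2-fold that edgeR passed, ETV1, TNC, CCN2, TAPBPL, MCL1, CXCL8 and JUN were lost without A375 siNC. ETV1, TNC, BBC3, PIK3R1, CXCL8 and MICB were lost without A375 siLINC01291, CXCL8 without SK-MEL-28 siNC or the siRNA term, and CA9 and TAPBPL with DESeq2.

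Counts that left the 1.5-fold range with library totals were lineage factors lower (2), PI3K genes lower (3), cytokines higher (1), TEAD group higher (1) and mitochondrial genes higher (4). In the siLINC01291 pair they were lineage factors lower (2), other MITF-state genes lower (1), PI3K genes lower (2), mitosis genes higher (1) and lower (5), class I genes lower (1), cytokines higher (1) and S100 genes higher (2). The cause was not tested. The labels give no replicate numbers, so libraries could not be paired by replicate. The siRNA term compares the lines within each siRNA, and without it edgeR called 4344 higher and 4257 lower.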

Other observations

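Gene classes differed between the siNC libraries to unequal extents. Of 433 expressed lincRNA genes 29.3% were at least 2-fold higher in SK-MEL-28 and 38.3% at least 2-fold lower, and 37.0% were past 8-fold in either direction. Of 11075 protein-coding genes the shares were 18.3%, 14.6% and 8.79%, and of 592 processed pseudogenes 14.7%, 17.2% and 6.59%. Among 85 snoRNA genes 5.88% were higher and 45.9% lower, with a median log2 ratio of -0.85 in the siNC pair and -0.34 in the siLINC01291 pair. Short RNAs without a poly(A) tail are only partly caught by oligo(dT) beads, and antisense genes (16.9% higher and 38.1% lower of 449) cannot be told apart from their partners without strand, so these classes are given as values only.

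Genes with few or no counts in the other line were more numerous in A375. Of the 12643 genes with at least 1 FPKM in A375 siNC 614 had at most 3 counts in SK-MEL-28 siNC, 148 of them protein-coding and 74 lincRNA. Of the 11791 in SK-MEL-28 siNC 310 had at most 3 counts in A375 siNC, 53 of them protein-coding and 50 lincRNA. In 232 and 119 of these genes the other line had no count at all. The 5 most abundant protein-coding genes were MT-CO1, MT-CO2, MT-CO3, MT-ND4 and MT-ATP6 in both lines. MT-CO3 was the highest in A375 siNC (5544 FPKM) and MT-CO2 in SK-MEL-28 siNC (12168 FPKM).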
